A study of Mus musculus with 2 samples.

Results

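The nuclear genes for the oxidative phosphorylation machinery were examined in natural killer (NK) cells sorted from mouse brain. The members were every gene whose symbol begins with Ndufa, Ndufb, Ndufc, Ndufs, Ndufv, Uqcr, Cox4 to Cox8 or Atp5, leaving out pseudogenes named with -ps. This rule gave 89 of the 31053 genes counted: 36 subunits of complex I, 8 of complex III, 18 of complex IV, 16 of complex V, and 11 assembly factors or other proteins. Of these 78 subunit genes, 70 had at least 100 UMIs (unique molecular identifiers, a tag for each captured RNA molecule) over the NK barcodes of both libraries, as did 7215 of all 31053 genes.

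Oxidative phosphorylation makes most of the ATP of a resting cell. Complexes I, III and IV, in the inner mitochondrial membrane, pass electrons to oxygen and pump protons outward, and complex V, the ATP synthase, lets the protons back to make ATP. Each of these complexes joins subunits encoded in the nucleus to a few encoded by the mitochondrial genome, whose 13 protein genes carry the prefix mt-, so the RNA supply comes from 2 genomes. NK cells are cytotoxic innate lymphocytes, and mouse NK cells are commonly staged by CD27, found on less mature cells, and KLRG1, found on the most mature cells.

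The data were 1 library of wildtype C57BL/6 mice and 1 of 3XTg-AD mice, all 8-month-old females without treatment, each from brain cells sorted as NK cells by fluorescence and prepared with a droplet kit that counts the 5′ ends of RNA. 3XTg-AD mice are a transgenic model of Alzheimer's disease whose transgenes are driven by a neuronal promoter, so NK cells are not their intended site. The labels do not give the number of mice per library, the sort gate or the genetic background of the 3XTg-AD mice. With 1 library per genotype, genotype and library cannot be told apart, there is no replicate check, and no p-value is given; every interval is a 95% interval for counting error only and does not cover differences between mice, preparations or cells.

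The wildtype library held 1709 barcodes and 5559995 UMIs, and the 3XTg-AD library 1695 barcodes and 5468455 UMIs. NK barcodes carried at least 2 summed UMIs of Ncr1, Klrb1c, Klre1, Klrk1 and Prf1, and numbered 1499 and 1532, with medians of 2863 and 2790.5 UMIs. Barcodes with at least 3 summed UMIs of Itga1, Cxcr6, Inpp4b, Gzmc and Tnfsf10, markers of type 1 innate lymphoid cells (ILC1), were kept apart as ILC1-like and numbered 103 and 80; they were deeper, with medians of 5387 and 5590 UMIs. Among NK barcodes, 126 and 102 were Cd27+ Klrg1-, 29 and 39 were Cd27+ Klrg1+, 684 and 680 were Klrg1+ Cd27-, and 660 and 711 had a UMI of neither gene, which at this depth does not show that the cells lack both. Ncr1, which defines NK cells and ILC1, was detected in 94.8% and 97.8% of NK barcodes, but it is itself a gene of the NK gate. Barcodes with more than a few T cell, myeloid or red blood cell UMIs had been left out beforehand. Low values of those markers in NK barcodes therefore follow in part from that filter. Only 3 of 6 T cell markers had any UMI in NK barcodes in each library, while microglia and other myeloid markers summed to 172 and 174 CPM, the UMIs of a gene or list scaled to a total of 1000000 UMIs, and red blood cell markers to 17.4 CPM in wildtype and 0.215 CPM in 3XTg-AD. A sum over barcodes cannot tell fewer RNA molecules per cell from fewer cells that express a gene.

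Promoter sequence is shown for 5 members that the results turn on: Ndufa3 and Atp5e, the complex I and complex V subunits with the lowest 3XTg-AD over wildtype ratios, and Atp5g1, Atp5g2 and Atp5g3, which encode the same c-ring protein of ATP synthase from separate genes. The sequences are RefSeq's for GRCm38.p6, read 5′ to 3′ on the strand of the gene. Searched motifs are in capitals where they lie within the bases shown, which are only part of the window searched. For Atp5g2 only the 30 bases around its motif are given, because the motif lies in an exon of the GENCODE annotation. That stretch is inside the annotated Atp5g2 gene, chr15:102662864-102672352, although before its RefSeq start.

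Ndufa3, chr7:3617223-3617372, plus strand, with a GC box in capitals: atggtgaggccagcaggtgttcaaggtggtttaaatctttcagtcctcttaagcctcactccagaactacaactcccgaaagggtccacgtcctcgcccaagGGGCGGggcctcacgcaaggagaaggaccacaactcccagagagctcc
Atp5e, chr2:174464106-174464255, minus strand, with an ETS site on the reverse strand and a GC box in capitals: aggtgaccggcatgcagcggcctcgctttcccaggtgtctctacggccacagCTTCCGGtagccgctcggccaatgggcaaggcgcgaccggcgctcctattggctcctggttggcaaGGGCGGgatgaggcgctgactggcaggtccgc
Atp5g1, chr11:96075671-96075820, minus strand, with no searched motif: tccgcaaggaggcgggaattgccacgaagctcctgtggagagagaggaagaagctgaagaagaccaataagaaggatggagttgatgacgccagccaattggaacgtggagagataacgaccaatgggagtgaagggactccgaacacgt
Atp5g2, chr15:102671070-102671099, minus strand, with an NRF1 site in capitals: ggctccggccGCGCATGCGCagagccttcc
Atp5g3, chr2:73911327-73911476, minus strand, with the ERR letters on the reverse strand in capitals: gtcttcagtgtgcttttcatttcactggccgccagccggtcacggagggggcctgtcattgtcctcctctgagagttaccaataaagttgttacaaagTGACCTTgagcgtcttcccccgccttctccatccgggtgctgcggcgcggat

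The 6 short motifs of factors known for mitochondrial or housekeeping promoters were searched on both strands of the window from 250 bases before to 50 after each RefSeq start, which was at hand for 63 subunit genes. NRF1 is a regulator of nuclear respiratory genes, and its palindromic site, the capitals of the Atp5g2 sequence, was in 5 of the 63 windows, or 7.94% (Atp5g2, Atp5k, Cox6a1, Ndufa11 and Uqcrc1), against 1.07% of 27025 windows of all genes and 2.69% of 5731 windows of genes measured in NK barcodes. The ERR letters AAGGTCA was in 11.1% of subunit windows against 5.38% and 3.66%, and the YY1 letters AAGATGG were in 15.9% against 7.28% and 10.00%. The ETS letters CCGGAAG were in 22.2% of subunit windows, between the 9.93% of all genes and the 26.0% of measured genes, and the GC box GGGCGG was in 38.1% against 38.2% and 71.9%. The TATA letters TATAAA were in 11.1% against 15.7% and 8.04%. Outside the bases shown above, the windows also held the YY1 and TATA letters for Ndufa3, the ERR letters for Atp5e and the GC box for Atp5g2. The shares describe letters, not bound sites, and had no test.

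In NK barcodes the nuclear subunits together took 25142 CPM in wildtype and 24031 CPM in 3XTg-AD, and the 13 mt- genes took 14819 and 12784 CPM. A UMI counts 1 molecule whatever its length, so levels of different genes are set side by side per molecule, without a length term. Reads shared with pseudogenes or with overlapping genes make such levels less certain; 5 members overlap the exon of another counted gene on the same strand (Ndufb2, Ndufb8, Ndufb9 and the 2 Atp5o entries, of which 1 had no UMI). Levels within a complex were far from equal, as the plot of subunit levels shows.

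**Figure D1:**
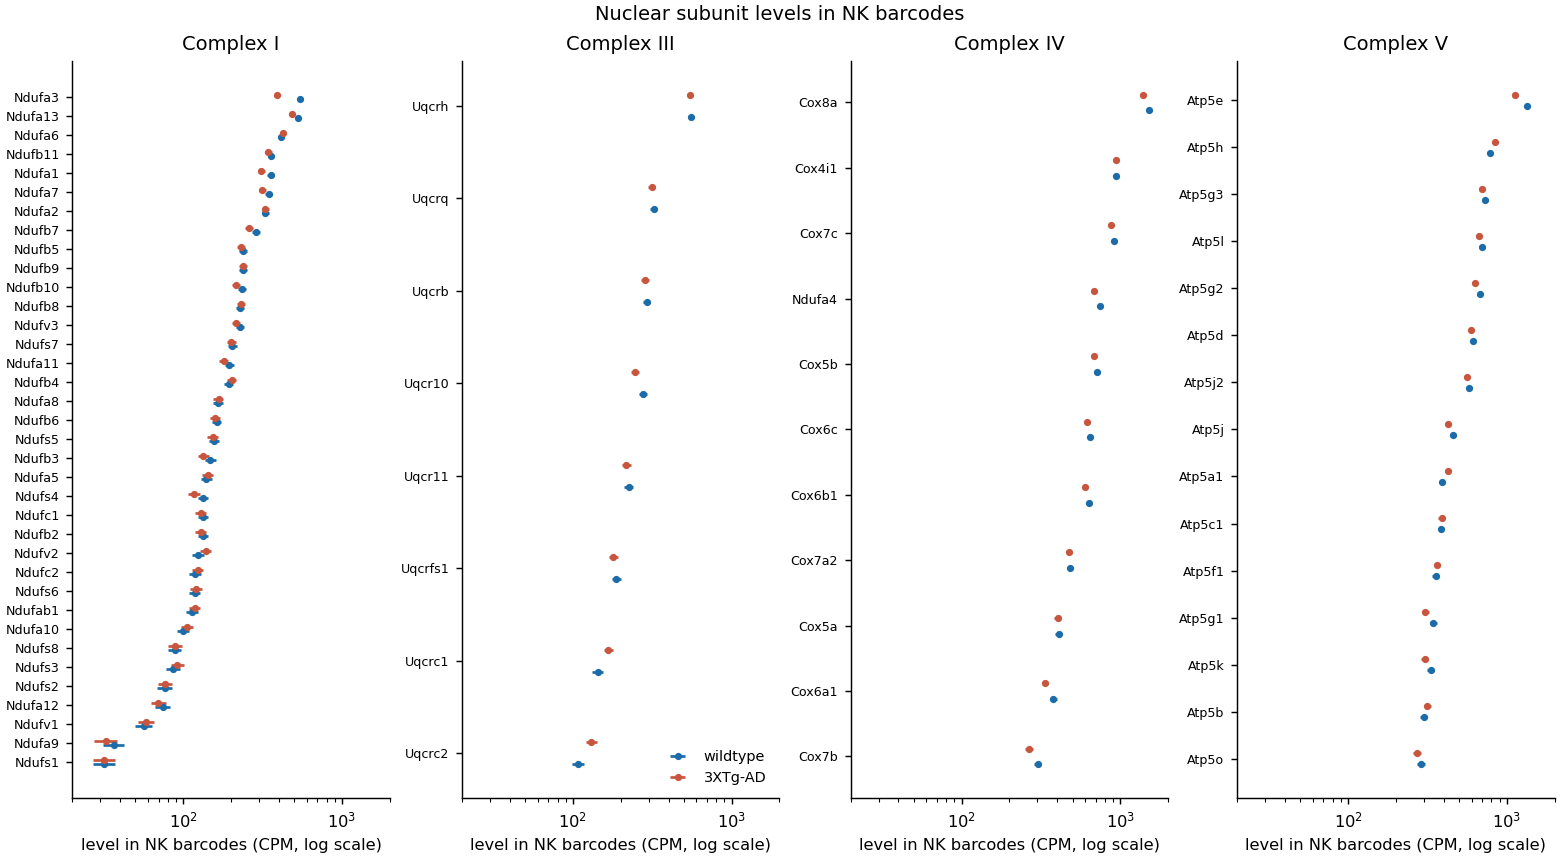
Level of each nuclear subunit gene with at least 100 UMIs in NK barcodes, by complex, in CPM on a log axis; points are the wildtype and 3XTg-AD libraries and bars are exact Poisson 95% intervals for counting error. Complex I spans the widest range, from Ndufs1 at about 32 CPM to Ndufa3 at 546 CPM in wildtype, and the largest gap between libraries in that panel is at Ndufa3.

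Complex I oxidises NADH. Its 7 nuclear core subunits carry the flavin and iron-sulfur clusters, and its other 29 subunits in the list are accessory. The core subunits were the less abundant: their median was 85.9 CPM in wildtype and 88.9 CPM in 3XTg-AD, against 193 and 180 CPM for the accessory subunits. Ndufs1, the largest core subunit, was lowest of the complex at 31.9 and 31.8 CPM. The 5 most abundant were accessory. Ndufa3 stood at 546 CPM (95% interval 525 to 567) in wildtype and 391 CPM (373 to 409) in 3XTg-AD, Ndufa13 at 532 and 484, Ndufa6 at 413 and 424, Ndufb11 at 358 and 344, and Ndufa1 at 355 and 311. Ndufa3 was thus first in wildtype, while in 3XTg-AD Ndufa13 was first.

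Complex III passes electrons from ubiquinol to cytochrome c. Its small subunits were the most abundant: Uqcrh, the hinge protein, stood at 555 and 548 CPM in wildtype and 3XTg-AD, Uqcrq at 322 and 314, Uqcrb at 292 and 284, Uqcr10 at 277 and 245, and Uqcr11 at 224 and 217. The large core proteins Uqcrc1 and Uqcrc2 were lower, at 143 and 167 CPM and at 107 and 130 CPM. Uqcrfs1, the Rieske iron-sulfur protein, stood at 187 and 180 CPM. Cyc1, the cytochrome c1 subunit, does not match the symbol rule and is in no complex III sum given here. It stood at 128 and 135 CPM, a ratio of 3XTg-AD to wildtype of 1.06 (0.943 to 1.18).

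Complex IV reduces oxygen to water. Cox8a had the highest level of all members, at 1509 CPM (1474 to 1545) in wildtype and 1393 CPM (1360 to 1428) in 3XTg-AD, and was detected in 96.2% and 96.3% of NK barcodes. Cox4i1 stood at 932 and 943 CPM, Cox7c at 911 and 878, Ndufa4, now assigned to complex IV, at 740 and 685, and Cox5b at 710 and 683. The ubiquitous isoforms made up the complex. Cox6a1 stood at 378 and 335 CPM, Cox6b1 at 632 and 600, Cox7a2 at 483 and 476, Cox7b at 301 and 267, and Cox5a at 408 and 402. Their tissue-restricted counterparts had few UMIs or none. Cox4i2, Cox7b2, Cox8b, Cox8c and Ndufa4l2 had no UMI in any NK barcode of either library, which allows up to 0.200% of wildtype and 0.196% of 3XTg-AD barcodes to carry one; this limits barcodes with a UMI, not cells that express the gene. Cox6a2, the heart and muscle isoform, had 2 and 1 UMIs, Cox6b2, the testis isoform, 3 and 2, and Cox7a1, another heart and muscle isoform, 3 and 5. The supercomplex factor Cox7a2l, counted with the other proteins, stood at 98.6 and 96.7 CPM.

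Complex V has an F1 head that makes ATP, a proton-driven c ring, a stalk that holds the head still, and small membrane subunits. Atp5e, the smallest F1 subunit, stood at 1334 CPM (1301 to 1368) in wildtype and 1132 CPM (1102 to 1163) in 3XTg-AD, far above the catalytic Atp5b at 299 and 315 CPM and its partner Atp5a1 at 391 and 428 CPM. Atp5h, of the stalk, stood at 783 and 837 CPM, and Atp5l, of the membrane part, at 700 and 666. Of the c-ring genes, Atp5g3 stood at 731 and 693 CPM, Atp5g2 at 673 and 626, and Atp5g1 at 345 and 307. The c-ring makeup was nearly the same in both libraries, with Atp5g2 giving 38.5% of c-ring UMIs in each.

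Between genotypes, the nuclear subunits were slightly lower and the mt- genes clearly lower in 3XTg-AD NK barcodes, beyond counting error. The ratio of 3XTg-AD to wildtype was 0.956 (0.948 to 0.964) for all nuclear subunits and 0.863 (0.853 to 0.872) for all mt- genes. By complex, the nuclear sums gave 0.949 (0.935 to 0.964) for complex I, 0.990 (0.962 to 1.02) for III, 0.952 (0.937 to 0.966) for IV and 0.957 (0.943 to 0.971) for V. The mt- genes of the same complexes gave 0.955 (0.933 to 0.978) for I, 0.872 (0.838 to 0.907) for III, 0.823 (0.809 to 0.837) for IV and 0.851 (0.834 to 0.868) for V. In complex I the nuclear and mt- sums were thus lower by about the same factor, while in III, IV and V the mt- sum was lower by more.

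The single mt- genes differed widely. mt-Co1 and mt-Co2, the catalytic core of complex IV, stood at 2609 and 2688 CPM in wildtype and at 2059 and 2223 CPM in 3XTg-AD. mt-Co3 stood at 858 and 781 CPM, and mt-Cytb, the cytochrome of complex III, at 1125 and 981 CPM. mt-Atp6 stood at 3585 CPM in wildtype and 2850 CPM in 3XTg-AD, a ratio of 0.795 (0.777 to 0.813), but mt-Atp8, which shares its transcript and overlaps it, stood at 837 and 913 CPM, a ratio of 1.09 (1.05 to 1.14). Among complex I genes, mt-Nd1 stood at 401 and 392 CPM, mt-Nd2 at 442 and 443, mt-Nd3 at 90.4 and 88.1, mt-Nd4 at 385 and 392, mt-Nd4l at 1572 and 1470, mt-Nd5 at 207 and 178, and mt-Nd6 at 18.9 and 13.1. The intervals of the ratios of mt-Nd1, mt-Nd2, mt-Nd3 and mt-Nd4 include 1.

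**Figure D2:**
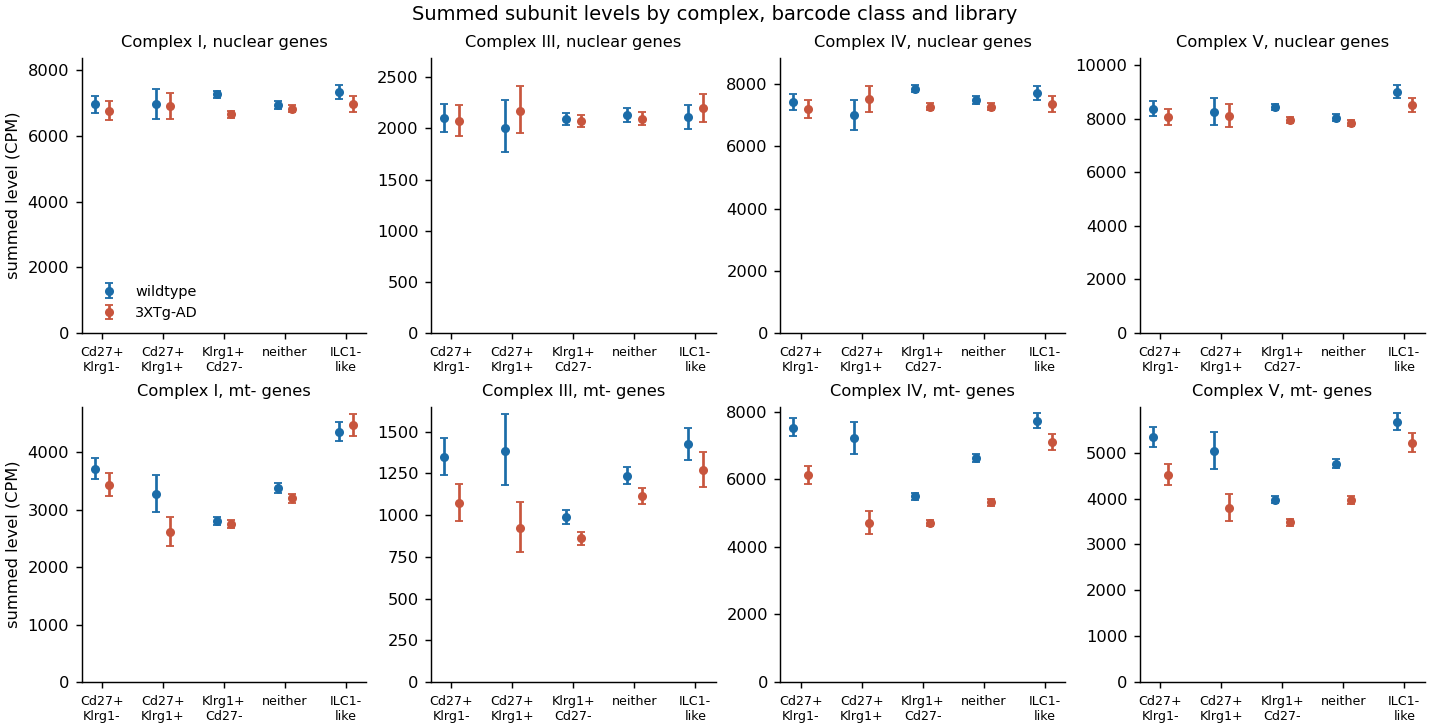
Summed level in CPM of the nuclear subunits (top row) and of the mt- genes (bottom row) of each complex, by barcode class, in the wildtype and 3XTg-AD libraries; bars are exact Poisson 95% intervals for counting error and axes start at 0. The nuclear sums are nearly level across classes, while the mt- sums are lowest or among the lowest in Klrg1+ Cd27- barcodes and highest or among the highest in ILC1-like barcodes.

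Gene by gene, 79 of the 89 members had at least 100 UMIs over both NK sums. Of these, 53 had a ratio below 1, against 40.5% of all 7215 genes measured, with a median log2 ratio of -0.04 against 0.06. None was at least 25% higher in 3XTg-AD, where 14.2% of all genes were, and 4 were at least 20% lower, where 7.82% of all genes were. The share of all genes past these limits depends on abundance. With a minimum of 300 UMIs, 0 and 2 of 73 members passed, where 10.1% and 5.47% of all genes did.

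**Figure D3:**
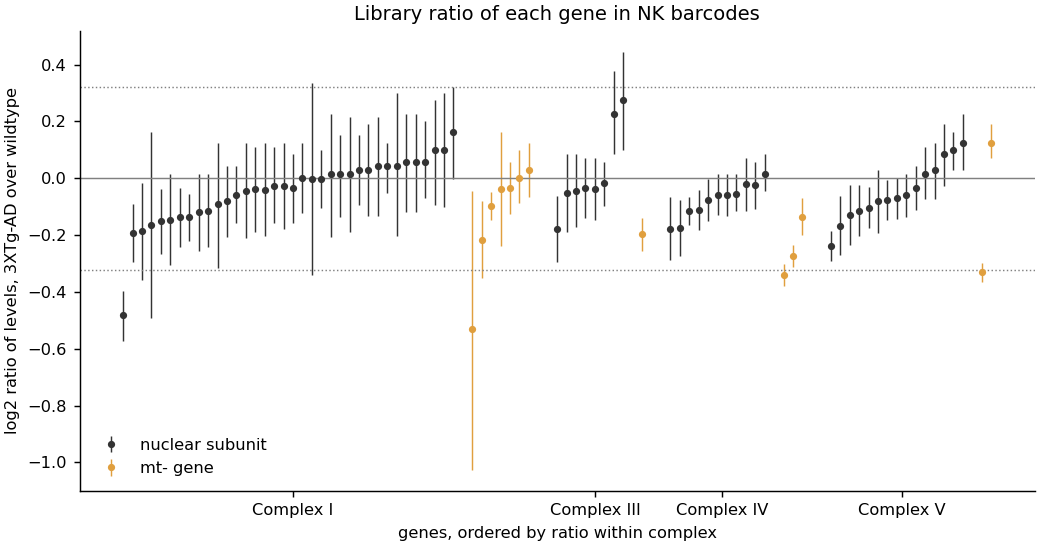
Log2 ratio of levels, 3XTg-AD over wildtype, in NK barcodes for each nuclear subunit and each mt- gene, ordered by ratio within its complex; bars are exact 95% intervals for counting error and dotted lines mark ratios 25% higher and 20% lower. Ndufa3 is the nuclear subunit past the lower line, and most nuclear subunits lie between the lines.

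Of those 4, Ndufa3 was the only structural subunit. Its 2536 UMIs (wildtype) and 1818 UMIs (3XTg-AD) gave a ratio of 0.716 (0.673 to 0.760), and it was detected in 78.0% and 70.3% of barcodes. Ndufa3 is an accessory subunit of the membrane arm, encoded at chr7:3617373-3620327 in GRCm38. It was lower in 3XTg-AD in each of the 5 classes: 508 and 372 CPM in Cd27+ Klrg1-, 512 and 414 in Cd27+ Klrg1+, 557 and 378 in Klrg1+ Cd27-, 542 and 407 in barcodes with neither, and 632 and 431 in ILC1-like barcodes, for wildtype and 3XTg-AD in turn. The interval of the ratio includes 1 only in Cd27+ Klrg1+ barcodes, 0.809 (0.566 to 1.16). The other 3 were complex I assembly factors at low levels: Ndufaf4 at 43.3 and 30.9 CPM, Ndufaf7 at 28.8 and 22.3, and Ndufaf2 at 33.6 and 26.2; the interval for Ndufaf7 includes 1.

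At the other end were Uqcrc2, with a ratio of 1.21 (1.07 to 1.36), Uqcrc1 with 1.17 (1.06 to 1.30), the assembly factor Ndufaf1 with 1.17 (0.839 to 1.65) and Ndufv2 with 1.12, whose interval also includes 1. Uqcrc1 and Uqcrc2 are the large core proteins of complex III and Ndufv2 is a core subunit of complex I, so the roles were also summed, a grouping chosen after the values were seen. The complex III core, here Uqcrc1, Uqcrc2 and the catalytic Uqcrfs1 without Cyc1, summed to 437 CPM in wildtype and 478 CPM in 3XTg-AD. Its ratio was 1.09 (1.03 to 1.16), against 0.963 (0.933 to 0.994) for the other complex III members. The complex I core gave 1.03 (0.980 to 1.08) against 0.941 (0.926 to 0.956) for the accessory subunits, a sum that includes Ndufa3. In complex V the stalk gave 1.0 (0.975 to 1.03), the F1 head 0.947 (0.925 to 0.970) and the c ring 0.930 (0.902 to 0.960). The membrane subunits Atp5j2, Atp5k and Atp5l gave 0.947 (0.917 to 0.978). The F1 head sum includes Atp5e, at 1334 and 1132 CPM. Of its other genes, Atp5d stood at 612 and 597 CPM, Atp5a1 at 391 and 428, Atp5b at 299 and 315 and Atp5c1 at 383 and 389. The last 3 were thus higher in 3XTg-AD, unlike the sum.

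Of 57 members measured in each of 4 classes (Cd27+ Klrg1-, Klrg1+ Cd27-, neither, and ILC1-like), 13 were lower in 3XTg-AD in all 4, or 22.8%, against 15.6% of all genes measured there; 1 was higher in all 4, Atp5h, against 18.8% of all genes. The 13 included Ndufa3, Atp5e, Cox8a and Ndufa13. Atp5e had a ratio of 0.848 (0.818 to 0.880) over all NK barcodes and Cox8a 0.923 (0.892 to 0.955), neither as much as 20% lower.

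Other lists also had different levels in the 2 libraries. Cytosolic ribosomal protein genes took 19.4% of the UMIs of NK barcodes in wildtype against 17.5% in 3XTg-AD, genes of handling stress 1987 and 2476 CPM, and interferon-response genes 684 and 299 CPM. The log2 ratio of the mt- sum was -0.21 over all NK barcodes, -0.23 without barcodes with at least 3 interferon-response UMIs, -0.22 without the 5% most stressed barcodes and -0.25 with scaling that leaves out mt- and ribosomal protein genes. For the nuclear sum these values were -0.07, -0.07, -0.06 and -0.10.

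By maturation, the nuclear and the mt- sums differed in different ways. From Cd27+ Klrg1- to Klrg1+ Cd27- barcodes, the nuclear sum stood at 24854 and 25651 CPM in wildtype, a ratio of 1.03 (1.01 to 1.05), and at 24122 and 23947 CPM in 3XTg-AD, a ratio of 0.993 (0.970 to 1.02). The mt- sum stood at 17953 and 13263 CPM in wildtype, a ratio of 0.739 (0.720 to 0.758), and at 15144 and 11807 CPM in 3XTg-AD, a ratio of 0.780 (0.757 to 0.803). Each mt- gene with enough UMIs, 12 of 13, was lower in Klrg1+ Cd27- barcodes of both libraries, where 25.6% of all 3424 genes measured in both libraries were. Other lists had different levels in the same classes, from Cd27+ Klrg1- to Klrg1+ Cd27-: microglia and myeloid markers stood at 50.3 and 250 CPM in wildtype and 108 and 230 CPM in 3XTg-AD, with Trem2 at 0 in each, proliferation genes at 33.5 and 233 and at 26.2 and 257 CPM, and interferon-response genes at 863 and 418 CPM in wildtype and 299 and 293 CPM in 3XTg-AD. Without proliferating barcodes the log2 ratio of the mt- sum was -0.43 in wildtype and -0.33 in 3XTg-AD, and without interferon-high barcodes -0.44 and -0.36, against -0.44 and -0.36 over all; the part of the myeloid markers was not tested.

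The size was similar across complexes. In wildtype the mt- ratio was 0.753 (0.713 to 0.797) for complex I, 0.733 (0.668 to 0.805) for III, 0.729 (0.701 to 0.758) for IV and 0.744 (0.710 to 0.779) for V. In 3XTg-AD it was 0.800 (0.752 to 0.852), 0.805 (0.720 to 0.903), 0.771 (0.735 to 0.808) and 0.770 (0.729 to 0.814). Among 3XTg-AD barcodes of 2000 to 4000 UMIs, the complex III value, mt-Cytb alone, turned to a log2 ratio of 0.07. mt-Nd5 had the lowest ratio in both libraries, with 278 CPM in Cd27+ Klrg1- and 174 CPM in Klrg1+ Cd27- barcodes of wildtype, and 250 and 151 CPM in 3XTg-AD. For mt-Co1 the same levels were 3510 and 2273 CPM in wildtype and 2637 and 1892 CPM in 3XTg-AD.

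For the nuclear subunits the split by complex was small and differed between libraries. In wildtype the ratio of Klrg1+ Cd27- to Cd27+ Klrg1- was 1.04 (1.0 to 1.09) for complex I, 0.998 (0.928 to 1.07) for III, 1.06 (1.02 to 1.10) for IV and 1.01 (0.973 to 1.05) for V; in 3XTg-AD it was 0.984 (0.942 to 1.03), 0.998 (0.922 to 1.08), 1.01 (0.966 to 1.05) and 0.985 (0.946 to 1.03). In wildtype, scaling without mt- and ribosomal protein genes turned the log2 ratio of the nuclear sum from 0.05 to -0.07, so its direction depends on the scaling. Ribosomal protein genes took 23.8% of UMIs in Cd27+ Klrg1- and 17.9% in Klrg1+ Cd27- barcodes of wildtype, and 22.3% and 16.3% in 3XTg-AD.

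Few single members stood apart by maturation. In wildtype, of 73 members with enough UMIs, 7 were at least 25% higher in Klrg1+ Cd27- barcodes, where 22.5% of all genes were, and 4 at least 20% lower, where 16.6% were; in 3XTg-AD these counts were 4 and 2 of 71, where 24.3% and 15.9% were. With scaling that leaves out mt- and ribosomal protein genes they were 1 higher and 9 lower in wildtype, where 14.3% and 24.2% of all genes were, and 2 higher and 12 lower in 3XTg-AD, where 16.6% and 25.4% were. With Klrg1 and Cd27 status taken from at least 2 UMIs, which left 26 and 15 Cd27+ Klrg1- barcodes, 18 of 70 and 17 of 68 measured members were higher, where 36.0% and 37.9% of all genes were, and in 3XTg-AD 11 were lower, where 23.4% were. With a minimum of 300 UMIs per gene, 5 of 62 and 3 of 60 members were higher, where 21.4% and 21.1% of all genes were. In each library 1 was lower, where 12.5% and 11.6% were. Of 71 members measured in both libraries, 23 had a ratio above 1 in both, where 38.2% of all genes did, and 18 below 1 in both, where 25.6% did. At least 25% higher in both were 0 members, against 9.29% of all genes, and at least 20% lower in both was 1, against 6.66%. That member was Ndufa12, an accessory complex I subunit, at 88.7 and 70.2 CPM in wildtype and 87.2 and 64.8 CPM in 3XTg-AD for Cd27+ Klrg1- and Klrg1+ Cd27- in turn, with intervals of the ratio that include 1 in both.

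The members with the lowest ratios of one sign in both libraries were Ndufa12, Cox7a2l, Atp5g2 and Ndufs8. Atp5g2 had 783 CPM in Cd27+ Klrg1- and 658 CPM in Klrg1+ Cd27- barcodes of wildtype, a ratio of 0.840 (0.745 to 0.950), and 800 and 588 CPM in 3XTg-AD, a ratio of 0.736 (0.646 to 0.841). Cox7a2l had ratios of 0.703 (0.515 to 0.976) and 0.875 (0.612 to 1.28), and Ndufs8, a core iron-sulfur subunit, 0.746 (0.535 to 1.06) and 0.865 (0.598 to 1.28). The highest were Atp5f1, Uqcrb, Atp5b and Cox5b. Atp5f1, of the stalk, had 283 and 370 CPM in wildtype, a ratio of 1.31 (1.08 to 1.60), and 317 and 382 CPM in 3XTg-AD, a ratio of 1.21 (0.988 to 1.49). Cox5b had 1.17 (1.03 to 1.33) and 1.23 (1.06 to 1.44), Uqcrb 1.11 (0.907 to 1.37) and 1.37 (1.07 to 1.78), and Atp5b 324 against 276 CPM in wildtype and 337 against 270 CPM in 3XTg-AD. For 3XTg-AD Atp5b the log2 ratio of 0.32 turned to -0.14 when barcodes were thinned to 1400 UMIs each. Some values whose interval includes 1 also turned: wildtype Uqcrb from 0.15 to -0.08 after thinning, 3XTg-AD Cox7a2l from -0.19 to 0.16 among barcodes of 2000 to 4000 UMIs, and 3XTg-AD Ndufs8 from -0.21 to 0.17 with status from 2 UMIs.

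**Figure D4:**
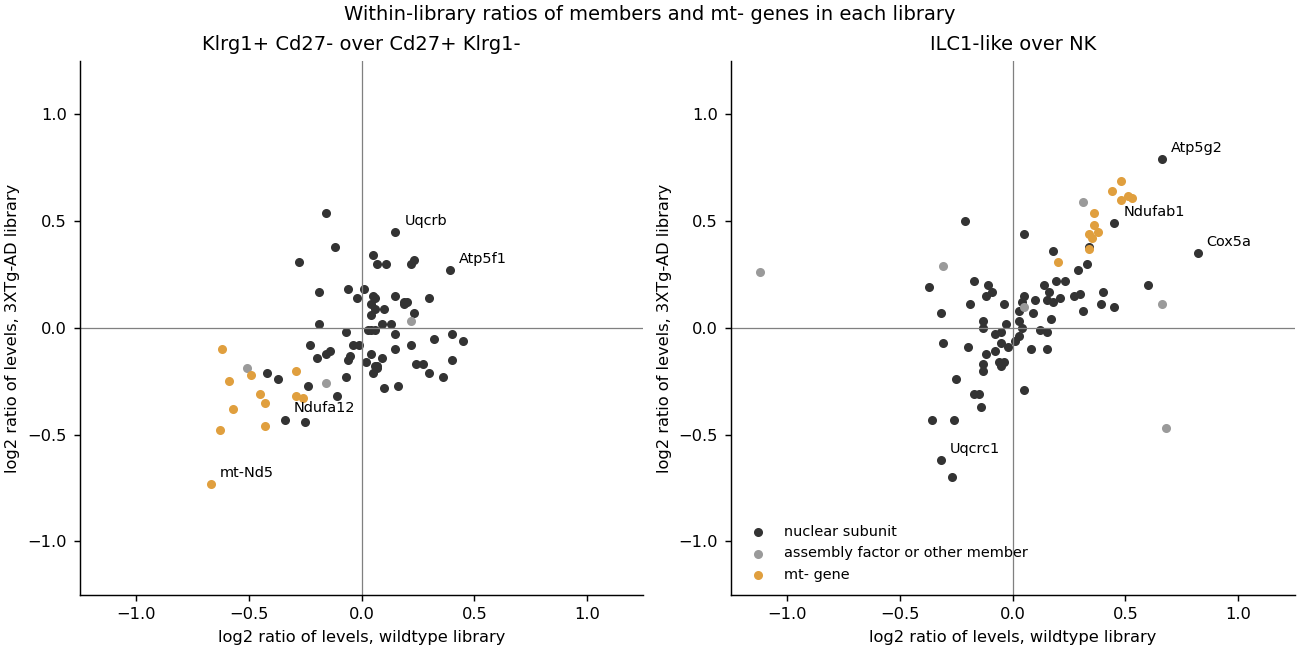
Log2 ratio of levels within each library, with wildtype on the x axis and 3XTg-AD on the y axis, for Klrg1+ Cd27- over Cd27+ Klrg1- (left) and ILC1-like over NK barcodes (right); each point is a gene with at least 100 UMIs in both libraries. The mt- genes lie below 0 on both axes on the left and above 0 on both axes on the right, and nuclear subunits surround 0 in both panels.

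ILC1-like barcodes were on the other side for mt- genes. Their mt- sum was 19206 CPM against 14819 CPM in NK barcodes of wildtype, a ratio of 1.30 (1.27 to 1.32), and 18081 against 12784 CPM in 3XTg-AD, a ratio of 1.41 (1.38 to 1.45). Their nuclear sum was 26179 against 25142 CPM in wildtype, a ratio of 1.04 (1.02 to 1.06), and 25032 against 24031 CPM in 3XTg-AD, also 1.04 (1.02 to 1.06). The nuclear ratio did not keep its sign at matched depth: among barcodes of 2000 to 4000 UMIs, of which 19 and 12 were ILC1-like, its log2 value was -0.30 in wildtype and -0.03 in 3XTg-AD in place of 0.06. The mt- log2 ratio there was 0.82 and 0.95, above the 0.37 and 0.50 over all barcodes. Each of the 12 mt- genes measured in both libraries was higher in ILC1-like barcodes of both, where 20.4% of all 5371 genes were. T cell markers were also higher there, at 111 CPM against 13.1 CPM in NK barcodes of wildtype and 142 against 21.3 CPM in 3XTg-AD; of the 6 markers Cd3e, Cd5, Cd6 and Cd4 were at 0 in ILC1-like barcodes of both libraries, and Cd3g gave 65 of 67 and 62 of 65 UMIs. Stress genes were lower, at 1459 against 1987 CPM and at 1304 against 2476 CPM, and without the 5% most stressed barcodes the mt- log2 ratio was 0.37 and 0.50, as over all barcodes.

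These barcodes also held more ribosomal protein RNA, 29.4% and 30.6% of UMIs, and the median log2 ratio over all genes was -0.19 in wildtype and -0.27 in 3XTg-AD, so CPM ratios are best read against that shift. The members' median was 0.03 and 0.08. In wildtype, of 76 members with enough UMIs, 11 were at least 25% higher, or 14.5%, where 15.0% of all genes were, and 4 at least 20% lower, or 5.26%, where 38.8% were; in 3XTg-AD 8 were higher, where 15.4% of genes were, and 6 lower, where 46.0% were. With scaling that leaves out mt- and ribosomal protein genes these became 28 higher and 1 lower in wildtype, where 25.5% and 25.1% of all genes were, and 41 higher and 2 lower in 3XTg-AD, where 27.7% and 28.4% were. After thinning to 1400 UMIs, classes set again from the thinned counts held 43 and 18 ILC1-like barcodes. Of 70 measured members, 24 and 30 were then at least 20% lower, where 39.8% and 54.0% of all genes were.

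Of 76 members measured in both libraries, 32 had a ratio above 1 in both, where 20.4% of all genes did, and 22 below 1 in both, where 54.7% did. In both libraries 4 members were at least 25% higher in ILC1-like barcodes, against 8.23% of all genes, and 2 were at least 20% lower, against 27.3%. Atp5g2 had the largest mean log2 ratio over the 2 libraries: 673 CPM in NK and 1063 CPM in ILC1-like barcodes of wildtype, a ratio of 1.58 (1.45 to 1.72), and 626 and 1082 CPM in 3XTg-AD, a ratio of 1.73 (1.57 to 1.90). The intervals of the 2 libraries overlap. Cox5a, a complex IV subunit, had 408 and 721 CPM in wildtype, a ratio of 1.77 (1.59 to 1.96), and 402 and 514 CPM in 3XTg-AD, a ratio of 1.28 (1.11 to 1.47). Its log2 ratio of 0.82 in wildtype turned to -0.37 among barcodes of 2000 to 4000 UMIs, and in 3XTg-AD to -0.05. Ndufab1, the mitochondrial acyl carrier protein, had 1.36 (1.08 to 1.70) and 1.41 (1.09 to 1.79), with a wildtype log2 ratio of 0.45 that turned to -0.41 after thinning, and Ndufb3, an accessory subunit of complex I, had 1.26 (1.03 to 1.54) and 1.30 (1.02 to 1.64). Cox7a2l had 1.24 (0.958 to 1.59) and 1.51 (1.15 to 1.95).

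On the lower side, Uqcrc1 had 143 CPM in NK and 114 CPM in ILC1-like barcodes of wildtype, a ratio of 0.800 (0.615 to 1.03), and 167 and 109 CPM in 3XTg-AD, a ratio of 0.650 (0.479 to 0.866). Atp5a1, of the F1 head, had 0.782 (0.668 to 0.910) and 0.743 (0.624 to 0.879). Ndufs1 had 0.831 (0.463 to 1.39) and 0.616 (0.276 to 1.20) on 16 and 9 ILC1-like UMIs, and Ndufb6 0.837 (0.658 to 1.05) and 0.740 (0.551 to 0.977), with a wildtype log2 ratio of -0.26 that turned to 0.02 after thinning. Of the tissue-restricted isoforms, Cox6a2 had 7 UMIs in ILC1-like barcodes of wildtype and 0 in those of 3XTg-AD.

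The share of c-ring UMIs given by each Atp5g gene does not depend on how the libraries are scaled. Atp5g2 gave 48.5% (45.8 to 51.3, exact Clopper-Pearson) in wildtype and 49.7% (46.6 to 52.8) in 3XTg-AD ILC1-like barcodes, against 38.5% (37.4 to 39.5) and 38.5% (37.4 to 39.6) in NK barcodes. Among NK barcodes it gave 40.9% (37.5 to 44.4) and 42.7% (38.8 to 46.6) in Cd27+ Klrg1- and 37.6% (36.1 to 39.1) and 37.6% (36.0 to 39.2) in Klrg1+ Cd27- barcodes. Atp5g1 gave 14.3% (12.5 to 16.3) and 14.4% (12.3 to 16.7) in ILC1-like against 19.7% (18.9 to 20.6) and 18.9% (18.0 to 19.8) in NK barcodes, and Atp5g3 gave 37.1% and 35.9% against 41.8% and 42.6%. Of the 3 c-ring windows, the NRF1 letters were in that of Atp5g2, starting 42 bases before its RefSeq start but in a GENCODE exon. This says nothing of binding here.

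**Figure D5:**
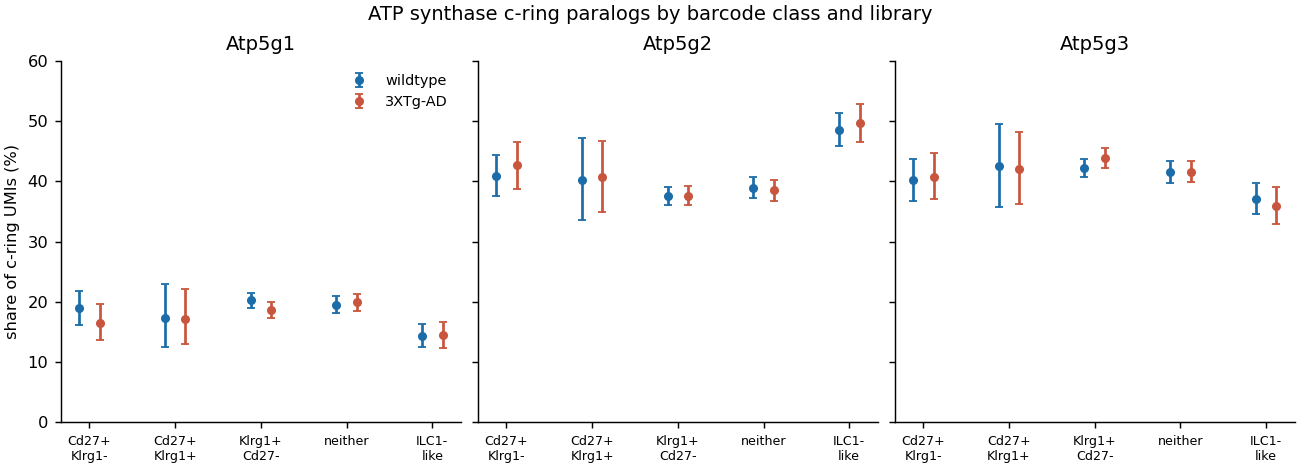
Share of c-ring UMIs from Atp5g1, Atp5g2 and Atp5g3 in percent, by barcode class, in the wildtype and 3XTg-AD libraries; bars are exact Clopper-Pearson 95% intervals for counting error. Atp5g2 stands near 38% to 43% in the NK classes and near 49% in ILC1-like barcodes of both libraries.

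The ratio of nuclear subunit UMIs to mt- UMIs is likewise free of scaling, and it ordered the classes. In wildtype it was 1.36 (1.33 to 1.40) in ILC1-like, 1.38 (1.34 to 1.43) in Cd27+ Klrg1-, 1.43 (1.35 to 1.52) in Cd27+ Klrg1+, 1.54 (1.51 to 1.56) in neither and 1.93 (1.91 to 1.96) in Klrg1+ Cd27- barcodes. The first 3 of these overlap by counting error and the last stands above the rest. In 3XTg-AD it was 1.38 (1.35 to 1.42) in ILC1-like, 1.59 (1.54 to 1.65) in Cd27+ Klrg1-, 1.77 (1.74 to 1.80) in neither, 2.03 (2.0 to 2.06) in Klrg1+ Cd27- and 2.05 (1.95 to 2.17) in the 39 Cd27+ Klrg1+ barcodes. The 2 libraries overlapped in ILC1-like barcodes and not in the other 4 classes, where 3XTg-AD was higher.

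By complex, the ratio in NK barcodes was lowest for complex IV, at 1.24 (1.22 to 1.26) in wildtype and 1.44 (1.41 to 1.46) in 3XTg-AD. For complex I it was 2.28 (2.24 to 2.33) and 2.27 (2.22 to 2.31), the same within counting error, for III 1.87 (1.81 to 1.94) and 2.13 (2.05 to 2.20), and for V 1.87 (1.84 to 1.90) and 2.10 (2.06 to 2.14).

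Single barcodes were compared after thinning each to 1400 UMIs and leaving out shallower ones. Classes were set again from the thinned counts. This gave 1415 and 1508 NK barcodes, with 71 and 60 Cd27+ Klrg1-, 466 and 438 Klrg1+ Cd27-, and 870 and 1004 with neither. A barcode called ILC1-like at full depth could then count as NK, and ILC1-like barcodes went from 103 and 80 to 43 and 18. The nuclear subunits then had a median of 34 UMIs in wildtype and 33 in 3XTg-AD, with 10th and 90th percentiles of 25 and 44 and of 25 and 42. The mt- genes had medians of 20 and 17 UMIs, with percentiles of 11 and 33 and of 9 and 28. The variance over barcodes was 1.69 and 1.61 times that of sampling alone for the nuclear subunits and 4.36 and 4.02 times for the mt- genes, so the nuclear sum was the more even from barcode to barcode. In Cd27+ Klrg1- and Klrg1+ Cd27- barcodes the nuclear median was 36 and 34.5 UMIs in wildtype and 33 and 32 in 3XTg-AD, and the mt- median was 26 and 18 and then 19 and 16. The class differences in the mt- sums are thus also seen at equal depth, between classes set again from the thinned counts.

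The neighbouring pathways were read from fixed lists. Complex II is the nuclear-encoded succinate dehydrogenase that also feeds ubiquinone. It had 3 of 4 genes above a library ratio of 1 in NK barcodes, where 59.5% of all genes were, and 0 at least 25% higher, where 14.2% were. Sdhb stood at 188 and 230 CPM, a ratio of 1.22 (1.12 to 1.34), and Sdha at 72.3 and 88.9 CPM. Cycs, cytochrome c, stood at 455 and 406 CPM, a ratio of 0.892 (0.838 to 0.950). Of 36 assembly and accessory proteins outside the members, 29 were measured. Of these, 3 were at least 25% higher and 4 at least 20% lower, where 14.2% and 7.82% of all genes were. Usmg5, an ATP synthase accessory protein, stood at 405 and 441 CPM. Of 16 citric acid cycle genes, 3 were at least 25% higher and 1 at least 20% lower, where 14.2% and 7.82% of all genes were. Mdh2 stood at 218 and 236 CPM. All 14 measured glycolysis genes had a ratio above 1, where 59.5% of all genes did. At least 25% higher was 1 of them, where 14.2% of all genes were. Their median log2 ratio was 0.14 against 0.06 for all genes. Gapdh stood at 1014 and 1109 CPM and Ldha at 558 and 615 CPM.

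The same lists were read in ILC1-like against NK barcodes. The median log2 ratio of glycolysis genes was -0.24 in wildtype and -0.59 in 3XTg-AD, of citric acid cycle genes -0.06 and -0.21, and of members 0.03 and 0.08, beside -0.19 and -0.27 for all genes. Eno1, of glycolysis, had a ratio of 0.570 (0.496 to 0.652) in wildtype and 0.530 (0.454 to 0.615) in 3XTg-AD, Cycs 0.691 (0.593 to 0.802) and 0.676 (0.560 to 0.810), and Sdhb 0.650 (0.506 to 0.825) and 0.691 (0.538 to 0.877), while Gapdh had 1.33 (1.24 to 1.44) and 1.31 (1.20 to 1.42). Of regulators of mitochondrial gene expression, 8 and 7 of 16 were measured, and 4 in each library were at least 20% lower in ILC1-like barcodes, where 38.8% and 46.0% of all genes were. Between libraries, 10 of these regulators were measured in NK barcodes, and 6 had a ratio of 3XTg-AD to wildtype above 1, where 59.5% of all genes did. At least 25% higher were 0 and at least 20% lower was 1, where 14.2% and 7.82% of all genes were. That gene was Tfam, the packaging and transcription factor of mitochondrial DNA. It stood at 45.0 CPM in wildtype and 35.2 CPM in 3XTg-AD NK barcodes, a ratio of 0.783 (0.635 to 0.966). Of 22 mitochondrial import and folding genes, 4 were at least 25% higher and 3 at least 20% lower between libraries, where 14.2% and 7.82% of all genes were. The import subunit gene Tomm7 stood at 473 and 466 CPM.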

How the data were processed

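The deposited values are UMI counts per gene and barcode, made by the authors with Cell Ranger 3.1.0 and STAR on mm10 per the submitters' processing notes; the matrix headers name software version 3.0.2. The sources used here do not give the annotation release. Barcodes were kept with at least 300 genes, at most 10% mt- UMIs, no doublet call (Scrublet in scanpy 1.11.5; 12 wildtype and 17 3XTg-AD calls) and few T, B, myeloid, red cell or neutrophil UMIs, which left 1618 and 1617; 1 barcode sequence occurs in both libraries. Depth was 5559995 and 5468455 UMIs. Counts were summed per class and divided by all UMIs of the class. Ratios of 2 sums have an exact conditional binomial 95% interval, levels an exact Poisson interval and shares an exact Clopper-Pearson interval. A gene was measured with at least 100 UMIs over the 2 sums. No test was run, because each group is 1 library. The ratio and thinning steps were tested on simulated data.

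The members and lists were chosen with earlier results of these data known, and subunit roles and motifs after values were seen. Named members are the 5 most abundant subunits per complex, the 4 highest and 4 lowest ratios per comparison (same sign in both libraries within libraries), alternative isoforms, all mt- genes and up to 3 genes of each other list; Ndufb3, Uqcrfs1 and the names given with motif or overlap counts were added after their values were seen. Alternatives were other scalings, UMI minimums, depths, gates and left-out barcodes. Gene positions are from GENCODE M21.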

Additional observations from a re-analysis of the deposited data

How the results depend on the processing

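No paired analysis was possible because each genotype is 1 library with no replicate number, and for the same reason no replicate could be left out. The sum of all mt- genes and the nuclear over mt- ratio kept their sign under every alternative run. Depth limits the ILC1-like values. With thinning, classes were set again from the thinned counts, which left 43 wildtype and 18 3XTg-AD ILC1-like barcodes. The window of 2000 to 4000 UMIs kept 19 and 12. The c-ring shares under other settings were computed after seeing the data; Atp5g2 then gave 48.0% to 64.6% in wildtype and 48.2% to 50.8% in 3XTg-AD ILC1-like barcodes. Sums and single genes are given below as log2 ratios, and counts are of members at least 25% higher or 20% lower. Each count is followed in parentheses by the members measured and the share of all measured genes past the same limit. Below, "maturation" is Klrg1+ Cd27- over Cd27+ Klrg1-, "ILC1" is ILC1-like over NK, and paired values are wildtype and 3XTg-AD in turn. Except where scaling or fewer barcodes make the change by construction, the cause was not tested.

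With scaling that left out mt- and ribosomal protein genes, the mt- sum was -0.25 between libraries, -0.55 and -0.47 by maturation, and 0.58 and 0.77 for ILC1, and the nuclear sum was -0.10, then -0.07 and -0.13, then 0.26 and 0.32. The wildtype maturation values of nuclear complexes I and IV turned to -0.06 and -0.04. Members higher were 1 (of 73, 14.3%) and 2 (of 71, 16.6%) by maturation and 28 (of 76, 25.5%) and 41 (of 76, 27.7%) for ILC1. Members lower were 9 (of 73, 24.2%) and 12 (of 71, 25.4%) by maturation and 1 (of 76, 25.1%) and 2 (of 76, 28.4%) for ILC1. With scaling by the median gene ratio, the mt- sum was -0.27, then -0.49 and -0.41, then 0.56 and 0.77. The nuclear sum was -0.12, then 0.00 and -0.06, then 0.25 and 0.32. Members higher for ILC1 were 27 (of 76, 24.8%) and 41 (of 76, 27.7%), and members lower 1 (of 76, 26.0%) and 2 (of 76, 28.4%). Members lower by 3XTg-AD maturation were 6 (of 71, 19.3%).

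Thinned to 1400 UMIs, the mt- sum was -0.24 between libraries, -0.56 and -0.27 by maturation, and 0.61 and 0.44 for ILC1; the nuclear over mt- ratio was 0.18, then 0.59 and 0.24, and -0.70 for wildtype ILC1. The nuclear sum was -0.09 and 0.01 for ILC1, with complex I at -0.07 in wildtype. Atp5b turned to -0.14 in 3XTg-AD maturation, Cox5a to -0.16 in 3XTg-AD ILC1 and Ndufab1 to -0.41 in wildtype ILC1. Members higher for 3XTg-AD ILC1 were 19 (of 70, 24.7%) and members lower for ILC1 24 (of 70, 39.8%) and 30 (of 70, 54.0%). Members lower by 3XTg-AD maturation were 8 (of 51, 17.7%).

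Among barcodes of 2000 to 4000 UMIs, the mt- sum was 0.82 and 0.95 for ILC1 and -0.27 for 3XTg-AD maturation, where its complex III part turned to 0.07. The nuclear sum was -0.30 and -0.03 for ILC1, with wildtype complexes I and V at -0.28 and -0.25, and 0.01 and -0.06 by maturation. The nuclear over mt- ratio was -1.12 and -0.98 for ILC1 and 0.42 and 0.21 by maturation. Cox5a turned to -0.37 and -0.05 and wildtype Ndufab1 to -0.26 for ILC1. Members higher for 3XTg-AD ILC1 were 16 (of 71, 24.4%). Members lower were 2 (of 76, 8.36%) between libraries, 37 (of 71, 40.3%) and 27 (of 71, 53.4%) for ILC1 and 7 (of 69, 16.5%) by 3XTg-AD maturation.

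With the mean over barcodes in place of sums, the mt- sum was -0.25 between libraries, 0.44 for wildtype ILC1 and -0.27 for 3XTg-AD maturation. The nuclear over mt- ratio was 0.19, -0.44 and 0.25 in the same order. The nuclear sum for wildtype ILC1 was 0.00 on the other side of 0, and members lower by 3XTg-AD maturation were 4 (of 71, 17.6%). Klrg1 and Cd27 status from 2 UMIs left 26 and 15 Cd27+ Klrg1- barcodes. Members higher were then 18 (of 70, 36.0%) and 17 (of 68, 37.9%), and members lower 11 (of 68, 23.4%) in 3XTg-AD. The nuclear sum was 0.08 and 0.03. In 3XTg-AD the mt- sum was -0.69, the nuclear over mt- ratio 0.72 and Atp5b -0.21.

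With an ILC1-like gate of 2 UMIs the 3XTg-AD mt- sum was 0.55, the wildtype nuclear sum 0.03 and the wildtype nuclear over mt- ratio -0.37. With a gate of 5 UMIs the mt- sum was 0.32 and 0.39, the nuclear over mt- ratio -0.23 and -0.34 and the wildtype nuclear sum 0.10. Without Gzmc in the gate the wildtype mt- sum was 0.34, and without Tnfsf10 members higher in 3XTg-AD were 5 (of 76, 15.7%). A minimum of 20 UMIs gave 8 (of 80, 25%) and 4 (of 79, 23.2%) members lower by maturation. A minimum of 300 UMIs gave 1 (of 62, 12.5%) and 1 (of 60, 11.6%) lower by maturation, and 2 (of 73, 5.47%) between libraries. Without interferon-high barcodes the mt- sum was -0.23 between libraries and the wildtype maturation nuclear sum 0.01. Members lower were then 7 (of 76, 40.1%) for wildtype ILC1 and 5 (of 70, 15.8%) for 3XTg-AD maturation. That last count was 4 (of 70, 16.3%) without proliferating barcodes and 4 (of 71, 15.7%) without the most stressed ones.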

Other observations

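The overlapping mt-Atp8 and mt-Atp6, made from a shared transcript, kept different proportions in the libraries. UMIs of mt-Atp8 per UMI of mt-Atp6 were 0.233 (95% counting interval 0.225 to 0.242) in wildtype and 0.321 (0.310 to 0.332) in 3XTg-AD NK barcodes. The value was 0.233 and 0.340 in Cd27+ Klrg1-, 0.188 and 0.334 in Cd27+ Klrg1+, 0.233 and 0.314 in Klrg1+ Cd27-, 0.238 and 0.323 in barcodes with neither, and 0.238 and 0.315 in ILC1-like barcodes. Each class was higher in 3XTg-AD than in wildtype. For the other overlapping pair, mt-Nd4l per UMI of mt-Nd4, the values were 4.09 (3.88 to 4.31) and 3.74 (3.56 to 3.94) in NK barcodes.

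Barcodes left out as other cells had other balances. In barcodes with T cell markers, 20 in wildtype and 18 in 3XTg-AD, nuclear subunits took 19226 and 22334 CPM and mt- genes 22483 and 19923 CPM. In barcodes with microglia or myeloid markers, 8 and 32, nuclear subunits took 20075 and 20004 CPM and mt- genes 16258 and 10932 CPM. Over single NK barcodes thinned to 1400 UMIs, which share a fixed total, nuclear and mt- UMIs had a Pearson r of -0.20 in 1415 wildtype and -0.15 in 1508 3XTg-AD barcodes, and complex I and complex IV nuclear UMIs 0.20 and 0.22.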
